A study of Saccharomyces cerevisiae with 45 samples.

Results

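The data describe what changed in budding yeast messenger RNA between 10 and 15 min after a shift from 25 to 37 °C, a mild heat shock. The comparison rests on 6 of the 45 arrays of the series, 3 titled as wild type at 37 °C for 10 min and 3 titled as wild type at 37 °C for 15 min, and it covers all 5449 genes that a probe set with 1 gene symbol measured. The strain is labelled BY4147 with the genotype MATa his3D1 leu2D0 met15D0 ura3D0, and every group carries these 4 alleles. Cells grew in rich medium (YPD) and were placed in a water bath at the stated temperature. The 6 arrays belong to the batch labelled A863, which also holds 3 arrays each of the 25 °C control and of 1, 3, 5, 7 and 40 min at 37 °C. A second set, 10 arrays of the batch labelled A927 with 2 arrays per group (25 °C and 3, 5, 10 and 40 min at 42 °C), is used for values set side by side. No label says whether replicate arrays come from separate cultures, so the tests measure only the spread between these arrays, which may be technical.

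Heat makes budding yeast rewrite its messenger RNA within minutes. The factor Hsf1 switches on chaperones, and the factors Msn2 and Msn4 switch on a wide set of genes for carbohydrate stores, antioxidants and alternative metabolism. At the same time cells lower the messages for making ribosomes, which in growing cells are the largest investment of the transcription machinery, and much of this response is known to be transient at a mild temperature. The interval from 10 to 15 min can therefore hold genes still moving away from their starting level beside genes already returning to it.

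Each value is a log2 intensity, so a difference of 1 is a 2-fold change, and levels of different genes are not on a common scale. The 24 arrays of batch A863 had medians of 10.204 to 10.241. Replicate arrays correlated at 0.9965 to 0.9992 within the 2 groups, and arrays of 10 min correlated with those of 15 min at 0.9809 to 0.9875. The median SD over 3 arrays was 0.066 at 10 min and 0.063 at 15 min. In all 24 arrays URA3, LEU2 and MET17 (the current name of MET15) stayed within 4.30 to 5.73. Their probe sets are among those taken as without a target, which set the floor of 5.476. Their nearness to the floor was thus given in advance. HIS3, whose labelled allele is a partial deletion, read 10.87 to 11.91. Genes specific to a cells averaged 11.41 at 10 min and 11.49 at 15 min over 7 members, and the 4 genes specific to alpha cells averaged 6.20 and 6.38, with none of the 11 called in the step. Actin probe sets at the 3′ end exceeded those at the 5′ end by 0.53 ± 0.04 (SD, n = 3) at 10 min and 0.58 ± 0.07 at 15 min. The same difference for TDH1, a glycolytic gene, was 1.91 ± 0.16 at 25 °C, 0.518 ± 0.027 at 10 min and 0.360 ± 0.045 at 15 min, and its part in the results was not tested. Spike-in poly-A controls averaged 6.77 ± 0.17 at 10 min and 6.92 ± 0.13 at 15 min.

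From 10 to 15 min 137 genes rose and 280 fell, which is 2.51% and 5.14% of the 5449 genes tested and 7.65% in either direction. These shares are the background for every list count of the step given below. In such bulk RNA, fewer cells with a transcript and less of it per cell cannot be told apart. A gene was called, here and in every other comparison, at an adjusted p under 0.05 in limma with Benjamini-Hochberg adjustment over all genes and a change of at least 1.5-fold (0.585 on the log2 scale). Changes ran from a fall by 3.58 to a rise by 2.56, and with a minimum of 2-fold 131 genes fell and 29 rose. The typical gene hardly moved, with a median step of 0.038. Without the minimum fold, 1651 genes (30.3%) were higher and 1172 (21.5%) lower, so many small differences exceeded the spread between arrays. The 3 arrays of 15 min lay outside the range of the 3 arrays of 10 min for 414 of the 417 called genes. Among all genes, 33.5% had all 3 arrays of 15 min above those of 10 min and 23.1% had all 3 below. Scaling the arrays by their poly-A spikes lowered the median of all genes to -0.11, a shift of -0.148, and gave 73 rises and 414 falls, so that rises made up 15.0% of the calls in place of 32.9%. No called gene named here changed direction under that scaling. A fit on all 45 arrays, which takes in replicate pairs that correlate at only 0.612 and 0.62, called 35 rises and 42 falls.

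Called genes were sorted by where they stood at 7 min against 25 °C, a comparison that shares no array with the step. At 7 min 1646 genes (30.2%) differed from 25 °C, 826 of them upward (15.2%) and 820 downward (15%). Of the 826 that were higher, 47 (5.69%) rose further between 10 and 15 min, 17 (2.06%) turned down, and 762 were not called, with a median step of 0.133. Of the 820 that were lower, 156 (19%) fell further, 31 (3.78%) turned up, and 633 were not called, with a median step of -0.037. Another 59 genes rose and 107 fell without a call at 7 min. By 10 min, when 22% of all genes were called higher and 19.7% lower than at 25 °C, 32 of those 59 and 68 of those 107 had been called. Movement away from the 25 °C level thus took 47 and 156 genes, and return to it 17 and 31. Under the scaling by poly-A spikes 29 kept rising and 28 turned down, so among genes high at 7 min the excess was lost, while 198 kept falling and 13 turned up.

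**Figure D1:**
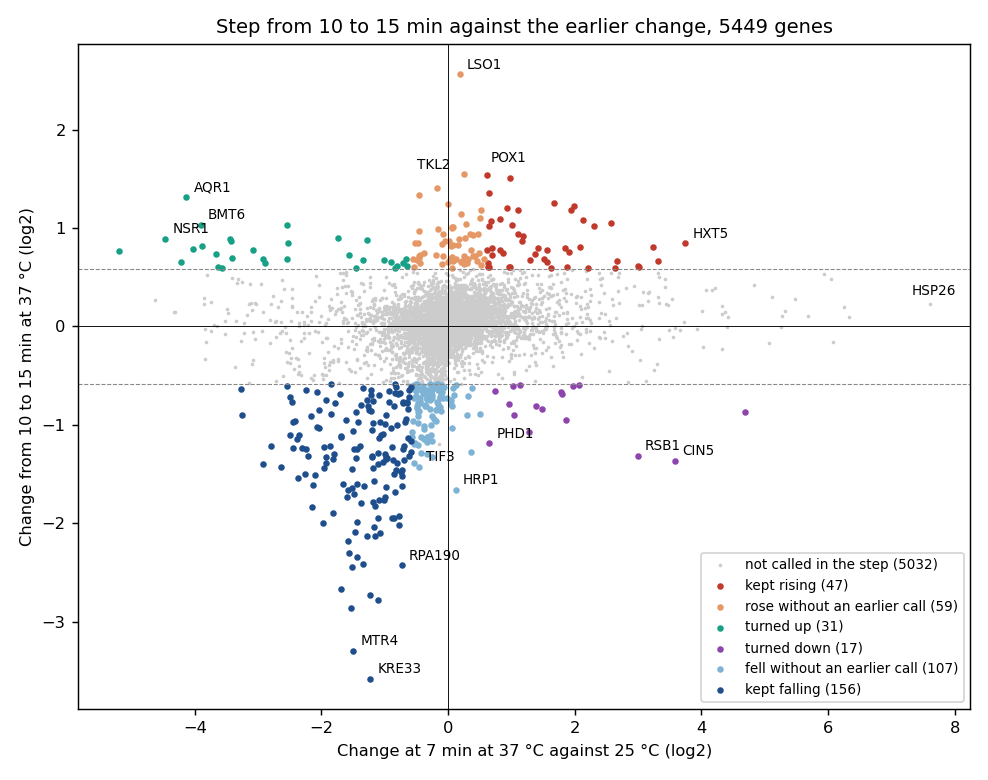
Change from 10 to 15 min at 37 °C (vertical axis, log2) against the change at 7 min relative to 25 °C (horizontal axis, log2) for 5449 genes, 1 point per gene; colours mark the 6 classes of called genes and dashed lines the 1.5-fold minimum. The 156 genes that kept falling fill the lower left and reach -3.58 in KRE33, whereas the 31 that turned up lie mostly among genes that had fallen far by 7 min.

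The largest group by count comprised genes that were already low at 7 min and kept falling, and ribosome assembly factors were among the deepest falls. KRE33 (YNL132W), the acetyltransferase that modifies 18S ribosomal RNA, read 9.80, 9.65 and 9.62 on the arrays of 10 min and 6.63, 5.56 and 6.15 on those of 15 min. All 3 later arrays lay far under the earlier ones, though they differed more among themselves. The fall by 3.58 ± 0.16 (SE, adjusted p = 1.8e-13) corresponds to 11.9-fold. MTR4 (YJL050W), the RNA helicase that feeds substrates to the nuclear exosome, went from 8.80, 8.59 and 8.47 to 5.30, 5.26 and 5.41. The groups were far apart and the later values lay below the floor, so MTR4 was at least 8.84-fold lower, set against the floor (adjusted p of the fit 6.2e-18).

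DRS1, a helicase of large-subunit assembly, dropped from 9.17, 9.04 and 8.81 to 6.36, 6.001 and 6.08, a fall by 2.86 ± 0.10. RRP5, a scaffold of the earliest pre-ribosomes, dropped from 10.201, 9.94 and 9.84 to 7.56, 6.83 and 7.40, a fall by 2.73 ± 0.13. In both genes the array groups were well separated. NOP13, MAK21, NOP14, NOP7, ERB1 and LTV1, all nucleolar or pre-ribosomal factors, fell by 2.18 to 2.77. RPA190 and URA7 complete the 12 largest falls among genes with a standard name.

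RPA190 (YOR341W), the largest subunit of RNA polymerase I, which transcribes ribosomal RNA, read 11.51, 11.33 and 11.30 at 10 min and 9.35, 8.34 and 9.18 at 15 min. It fell by 2.42 ± 0.17, with replicate 2 of 15 min lowest. The second-largest subunit, RPA135, fell by 2.02 ± 0.13, RPA49 by 1.66 ± 0.06, and RPC40, which polymerases I and III share, by 1.36 ± 0.04. Over the RNA polymerase I and III list 9 of 36 measured members fell (14 under the scaling by poly-A spikes) and 1 rose, RRN11, a factor that loads polymerase I onto its promoter. RRN11 rose by 0.61 ± 0.14, and the rise went under 1.5-fold without 10 min replicate 1 (0.582), without 10 min replicate 3 (0.525) or without 15 min replicate 2 (0.498).

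**Figure D2:**
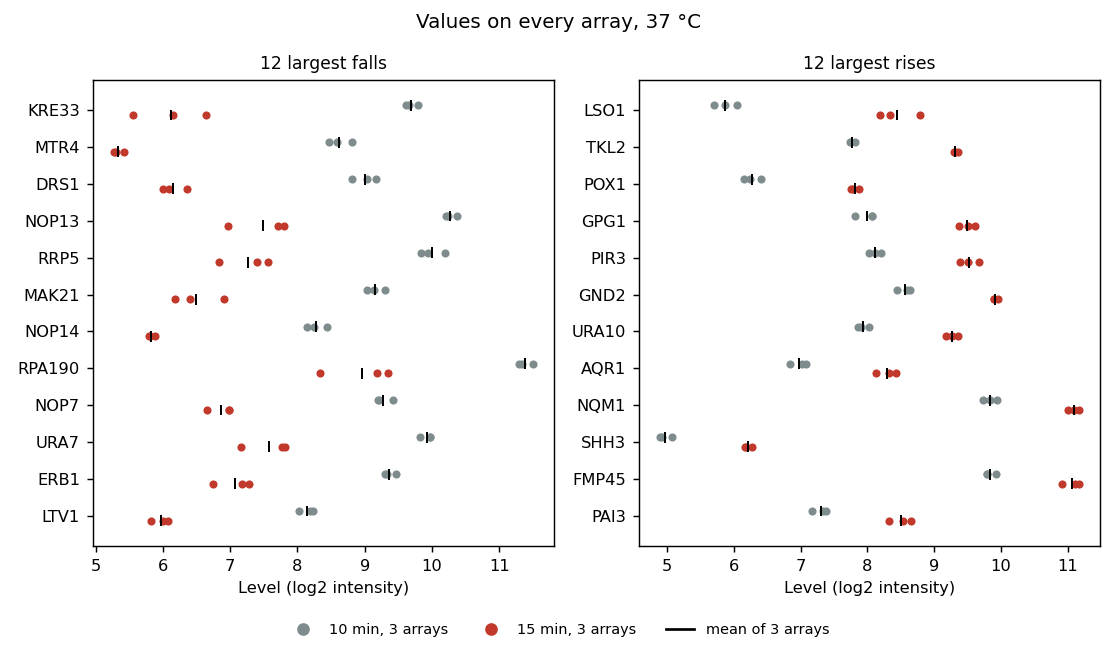
Log2 intensity on each of the 3 arrays of 10 min (grey) and the 3 of 15 min (red) at 37 °C for the 12 largest falls (left) and the 12 largest rises (right) among called genes with a standard name; black ticks are means of 3 arrays. Only genes whose red points lie entirely to one side of the grey ones were eligible, so this separation was given in advance. The values run from KRE33 (9.80, 9.65 and 9.62 against 6.63, 5.56 and 6.15) to LSO1 (5.86, 6.05 and 5.70 against 8.19, 8.78 and 8.34).

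Assembly factors of the ribosome were the largest block of genes on the way down. Of 64 measured factors of the small subunit 32 fell and 4 rose, and of 69 of the large subunit 30 fell and 3 rose. Of all genes 5.14% fell and 2.51% rose. Counted once each, the 133 assembly genes had a median step of -0.486. All 62 that fell had been called lower at 7 min, but so had 130 of the 133.

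How an assembly gene moved in the step went with how fast it had fallen earlier. The 133 genes were ordered by their change at 5 min against 25 °C, which shares no array with the step, and divided into 4 groups of 33 or 34. In the group that had fallen most by 5 min (median -2.28), 7 rose and 3 fell in the step, with a median step of 0.083. In the next groups 15, 21 and 23 fell and 0 rose, with median steps of -0.506, -1.120 and -1.345. Across the 133 genes the change at 5 min and the step correlated at r = -0.606 (Spearman's rho = -0.641), a description over genes that share the same arrays and are not independent. At 15 min the first 3 groups lay at a like distance from 25 °C, with medians of -4.63, -4.55 and -4.46, and the slowest group lay at -3.36. The median level of the fastest group was 6.89 at 10 min and 6.97 at 15 min, closer to the floor of 5.476 than that of the slowest group, at 10.1 and 8.80, and the part of this nearness in the pattern was not tested.

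**Figure D3:**
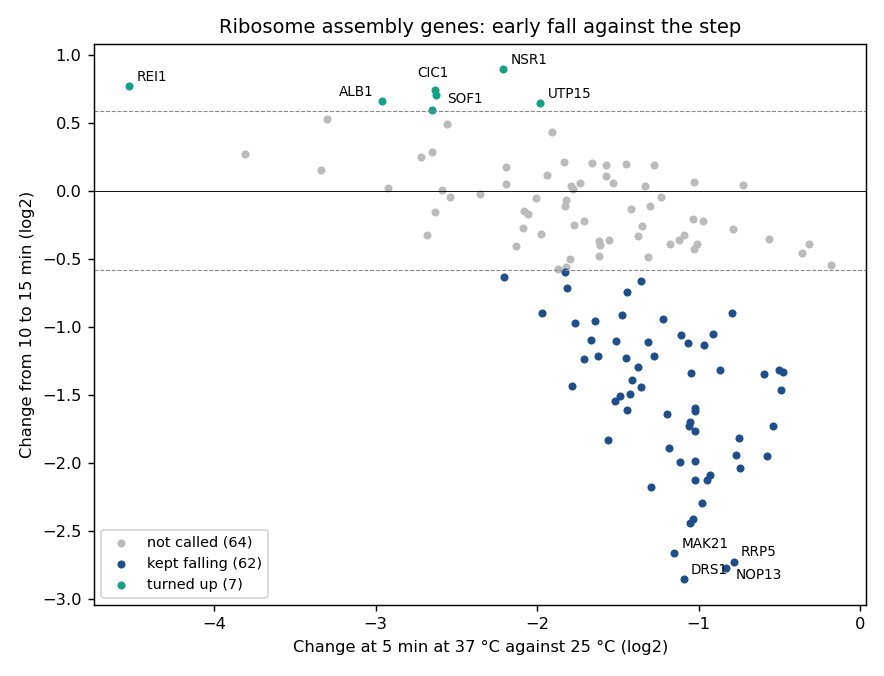
Step from 10 to 15 min (vertical axis, log2) against the change at 5 min relative to 25 °C (horizontal axis, log2) for 133 ribosome assembly genes, 1 point per gene; blue marks the 62 that kept falling, green the 7 that turned up and grey the rest. The green points lie among the earliest and deepest falls and the lowest blue points among genes that had changed by about -1 at 5 min (r = -0.606).

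Gene length went with the step as well. It was taken from the annotated gene models, which hold nearly no untranslated sequence but include introns where a gene has them. Across the same genes longer models had lower step values (rho = -0.400), whereas over all genes the relation was weak (rho = -0.079), and length showed little relation to the change at 5 min (rho = 0.093) or at 10 min (rho = -0.099). The shortest group of assembly genes, with a median of 724 bases, had a median step of -0.324, and the longest, with a median of 2691 bases, had -1.232. In these groups 10 of 34 and 23 of 33 genes fell.

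Of 33 measured genes of purine and pyrimidine metabolism 16 fell and 2 rose, 54.5% called against 7.65% of all genes. URA7, the main CTP synthase, went from 9.97, 9.96 and 9.83 to 7.81, 7.16 and 7.77 and fell by 2.34 ± 0.12. URA1, the dihydroorotate dehydrogenase, fell by 1.93 ± 0.08 with no overlap between the groups (11.92, 11.97 and 11.90 against 10.16, 9.69 and 10.15). AAH1, adenine deaminase, stood at -5.32 against 25 °C at 10 min and fell by another 1.40 ± 0.07. SAM1, which makes the methyl donor S-adenosylmethionine, fell by 1.80 ± 0.06. Among 39 tRNA modification genes 12 fell and 1, the methyltransferase gene TRM2, rose, 33.3% called against 7.65% of all genes. The falls included TRM82 (-1.40 ± 0.05), the Elongator subunits ELP2 (-1.37 ± 0.08) and ELP3 (-1.29 ± 0.06), and GCD10 (-1.33 ± 0.07).

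HXT1, a low-affinity glucose carrier, read 9.41, 9.21 and 9.18 at 10 min and 8.08, 8.02 and 7.97 at 15 min and fell by 1.24 ± 0.08. LYS4 and LEU9, enzymes of lysine and leucine synthesis, fell by 1.62 ± 0.10 and 1.46 ± 0.06. Of 38 genes of G1 and S phase 2 fell and 2 rose, where 5.14% of all genes fell and 2.51% rose, so the falls were at the background share. The falls were the cyclin CLN2 (-0.70 ± 0.07) and the ribonucleotide reductase RNR1 (-0.75 ± 0.09), and the rises the replication-licensing gene CDC6 (0.88 ± 0.09) and the Pho85 cyclin PCL2 (0.59 ± 0.08). The rise of PCL2 went under 1.5-fold without 10 min replicate 2 (0.542), 15 min replicate 1 (0.575) or 15 min replicate 2 (0.557).

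In the 156 genes that kept falling, replicate 2 of 15 min was the lowest array in 80, replicate 1 in 36 and replicate 3 in 40. Replicate 1 of 10 min was the highest in 102. Without replicate 2 of 15 min the class numbered 162.

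A further group, the late fallers, fell in the step without a call at 7 min. Some were already lower then, just short of the minimum fold, such as FSF1 (-0.571) and LHP1 (-0.57). These 107 genes had a median change of -0.298 at 7 min, -0.753 at 10 min and -1.519 at 15 min. The largest of them was HRP1, an RNA-binding protein of messenger RNA 3′ end formation, which read 12.47, 12.35 and 12.29 at 10 min and 10.96, 10.41 and 10.78 at 15 min. At 7 min HRP1 stood 0.12 above 25 °C, and it then fell by 1.66 ± 0.09 in this step (adjusted p = 5.0e-12).

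TIF3, the initiation factor eIF4B, went from 12.21, 12.08 and 12.07 to 10.78, 10.55 and 10.75, a fall by 1.43 ± 0.06. Among 37 translation factors 7 fell and 0 rose (16 fell under the scaling by poly-A spikes), including TIF4631, the scaffold eIF4G (-1.1 ± 0.10), GCD11, the gamma subunit of eIF2 (-0.82 ± 0.07), and RPG1 and PRT1, subunits of eIF3 (-0.78 ± 0.05 and -0.72 ± 0.05). TIF4631 alone of these 5 was already called lower at 7 min. Of 20 aminoacyl-tRNA synthetases 6 fell and 0 rose (13 fell under that scaling), led by YHR020W, the prolyl-tRNA synthetase (-1.21 ± 0.07), and with CDC60, the leucyl-tRNA synthetase, at -0.81 ± 0.07. SRO9, an RNA-binding protein with a La motif, fell by 1.39 ± 0.17.

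SSB2, an Hsp70 that meets new protein chains at the ribosome, read 13.45, 13.37 and 13.32 at 10 min and 12.21, 11.95 and 12.10 at 15 min, a fall by 1.29 ± 0.07. Its near-identical copy SSB1 fell by 0.68 ± 0.04, and probe sets of such close pairs may share signal, so the values of each are uncertain. These were the 2 called among 8 ribosome-associated chaperone genes.

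Ribosomal protein messages shifted little as a body, with a few exceptions. Of 52 small-subunit and 75 large-subunit genes measured, 7 and 7 fell and 0 rose (14 and 16 fell under the scaling by poly-A spikes), and the list medians were -0.206 and -0.222 against 0.038 for all genes. Without the minimum fold 44 of the 52 and 68 of the 75 were lower, against 21.5% of all genes. RPL13A went from 13.42, 13.34 and 13.35 to 12.24, 12.16 and 12.21, and RPL27B from 13.18, 13.30 and 13.25 to 12.12, 12.07 and 12.16. Both groups of arrays were tight and well apart, with falls by 1.17 ± 0.04 and 1.13 ± 0.04. RPS24B and RPS0B led the small subunit at -0.96 ± 0.04 and -0.94 ± 0.05. Most of these genes have a near-identical copy elsewhere in the genome, so a probe set may read both.

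Biosynthesis of purines and amino acids gave further late falls. ADE17, which completes the purine ring, stood 0.36 above 25 °C at 7 min, read 12.70, 12.52 and 12.43 at 10 min and 11.49, 11.04 and 11.28 at 15 min, and fell by 1.28 ± 0.09. ADE6, ADE13 and IMD3 of the same pathway fell by 1.17 ± 0.07, 1.04 ± 0.05 and 1.13 ± 0.09. These 4 purine genes were picked after their values were seen. GLT1, glutamate synthase, fell by 1.33 ± 0.06. Of 30 genes of branched-chain and aromatic amino acid synthesis 7 fell and 0 rose, among them BAT1, the mitochondrial branched-chain aminotransferase (-1.29 ± 0.08), and ILV3 (-1.13 ± 0.12). The glucose carriers HXT3 and HXT4 fell by 1.14 ± 0.06 and 0.89 ± 0.08, whereas HXT5 rose, and members of this family are alike enough in sequence for probe sets to share signal.

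**Figure D4:**
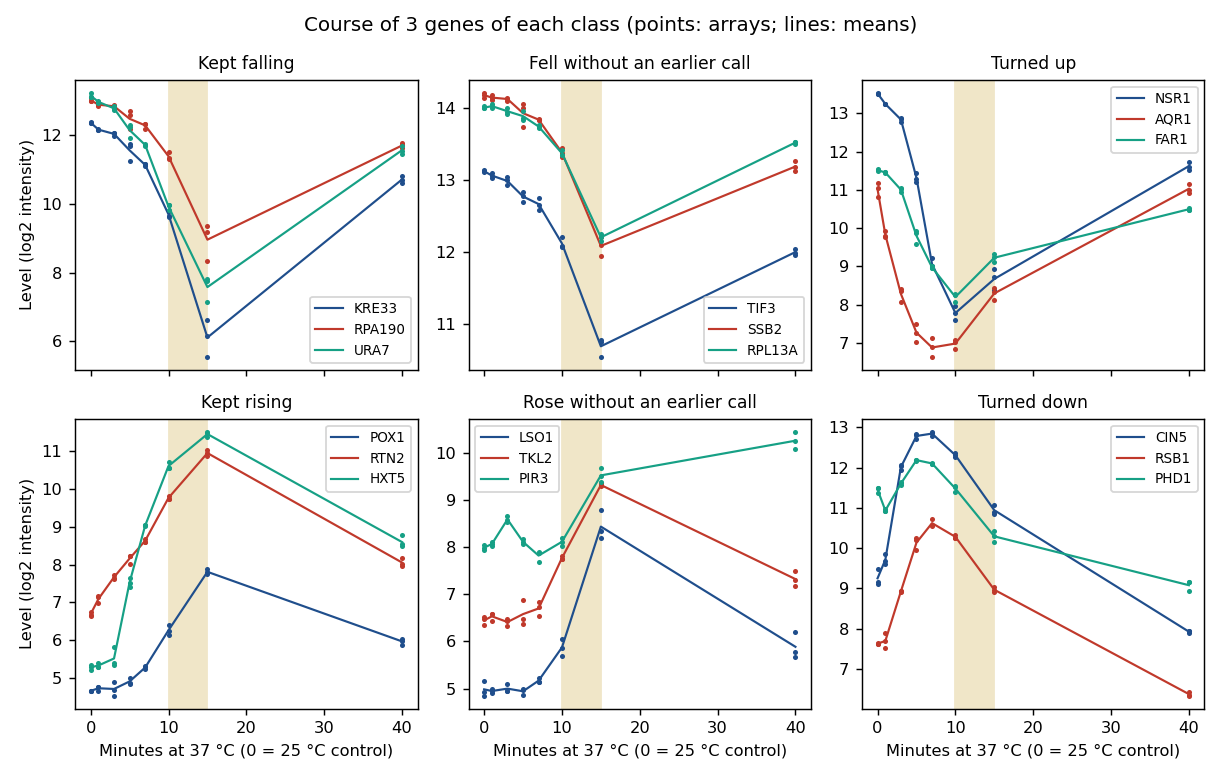
Log2 intensity of 3 genes from each of the 6 classes against minutes at 37 °C (0 is the 25 °C control); points are single arrays, 3 per time, lines join means and the shaded band is the step from 10 to 15 min. KRE33 drops through the band and is back at 10.7 by 40 min, NSR1 and AQR1 have their lowest times before 15 min, and CIN5 has its highest time at 7 min and is at 7.93 by 40 min.

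Against this, 31 genes that had been low at 7 min turned up, and 7 of them are ribosome assembly factors. AQR1 (YNL065W), a transporter of the plasma membrane, read 7.01, 7.08 and 6.84 at 10 min and 8.33, 8.42 and 8.13 at 15 min after a level of 11.01 at 25 °C. The groups did not overlap, and the rise by 1.31 ± 0.13 (adjusted p = 3.1e-08) was the largest of this class. NSR1 (YGR159C), the yeast nucleolin, went from 7.78, 7.97 and 7.59 to 8.71, 8.93 and 8.37. At 10 min it stood at -5.74 against 25 °C, and it rose by 0.89 ± 0.11, so most of its fall remained at 15 min.

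BMT6, a methyltransferase of 25S ribosomal RNA, rose by 1.03 ± 0.10 from values near the floor (5.81, 5.61 and 5.33 to 6.68, 6.75 and 6.41). The assembly factors SOF1 (0.70 ± 0.08), UTP15 (0.65 ± 0.07) and UTP9 (0.59 ± 0.09) act in the small-subunit processome, and CIC1 (0.74 ± 0.09), ALB1 (0.66 ± 0.12) and REI1 (0.77 ± 0.17) act on the large subunit. These 6 were named after their values were seen. Rises near the minimum fold rested on single arrays in 3 of them. UTP15 read 0.577 without 10 min replicate 3 and 0.581 without 15 min replicate 1. UTP9 read 0.489 without 10 min replicate 1, 0.502 without 15 min replicate 2 and 0.560 without 15 min replicate 3. ALB1 read 0.570 without 10 min replicate 3 and 0.469 without 15 min replicate 2.

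The other genes that turned up came from several processes. FAR1, the inhibitor that arrests the cell cycle in response to pheromone, went from 8.27, 8.25 and 8.07 to 9.24, 9.33 and 9.10, a rise by 1.03 ± 0.07 and the only call among 21 mating response genes. MSG5, a phosphatase that acts on the kinases of the pheromone and cell wall pathways, rose by 0.72 ± 0.05. MIG2, a repressor of glucose-repressed genes, rose by 0.78 ± 0.15. The phosphate carrier PHO84 (0.85 ± 0.09) and the purine and cytosine carrier FCY2 (0.69 ± 0.09) also rose. Under the scaling by poly-A spikes the class numbered 13 in place of 31, and 1 gene rose in each assembly list in place of 4 and 3.

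Of 35 cell wall integrity genes 5 rose and 0 fell, a rising share of 14.3% against 2.51% of all genes, and the 5 had different histories. Under the scaling by poly-A spikes 2 of the 35 rose, and EXG1, RLM1 and PRM5 lost their calls. PIR3, a wall protein, had stood 0.17 under 25 °C at 7 min and went from 8.03, 8.12 and 8.20 to 9.39, 9.67 and 9.51, a rise by 1.41 ± 0.08. PST1, another wall protein, rose by 0.74 ± 0.06. EXG1, a glucanase, and RLM1, the transcription factor of the pathway, had been lower at 7 min and rose by 0.66 ± 0.07 and 0.64 ± 0.07. PRM5 rose by 0.61 ± 0.06, which went under 1.5-fold without 10 min replicate 1 (0.573) or 15 min replicate 2 (0.553).

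The 47 genes that kept rising had medians of 1.37 at 7 min, 2.26 at 10 min and 3.19 at 15 min against 25 °C. POX1 (YGL205W), the acyl-CoA oxidase that starts fatty acid oxidation in the peroxisome, read 6.41, 6.24 and 6.14 at 10 min and 7.79, 7.76 and 7.87 at 15 min, a rise by 1.54 ± 0.07 (adjusted p = 5.4e-13). HXT5, a glucose carrier of slow-growing cells, went from 10.55, 10.54 and 10.70 to 11.36, 11.50 and 11.47. Its rise by 0.84 ± 0.09 came on top of 5.31 log2 units gained by 10 min. RTN2, a reticulon of the endoplasmic reticulum, rose by 1.18 ± 0.06, FMP45, a protein of the cell cortex, by 1.23 ± 0.11, and PAI3, an inhibitor of the vacuolar proteinase A, by 1.2 ± 0.10. GPG1 rose by 1.51 ± 0.09.

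Of 40 general stress genes under Msn2 and Msn4, 8 rose in the step and 0 fell, a share of 20% against 2.51% of all genes. They included ALD3, an aldehyde dehydrogenase (1.02 ± 0.08), MOH1 (1.14 ± 0.10) and TFS1, an inhibitor of carboxypeptidase Y (0.66 ± 0.08). Another 3 encode minor isozymes of the pentose phosphate pathway, which makes reducing power and ribose. GND2 went from 8.64, 8.44 and 8.59 to 9.89, 9.95 and 9.89 and rose by 1.35 ± 0.09. TKL2 went from 7.82, 7.74 and 7.75 to 9.35, 9.29 and 9.31 and rose by 1.55 ± 0.10. NQM1, the copy of transaldolase, went from 9.72, 9.84 and 9.93 to 10.998, 11.09 and 11.18 and rose by 1.25 ± 0.12. In each the 3 later arrays lay at least 1 log2 unit above the highest earlier one. The main isozymes, looked up after these values were seen, were not called, with steps of -0.08 ± 0.04 for GND1, -0.29 ± 0.04 for TKL1 and 0.12 ± 0.04 for TAL1, and the last took the opposite sign (-0.029) under the scaling by poly-A spikes.

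**Figure D5:**
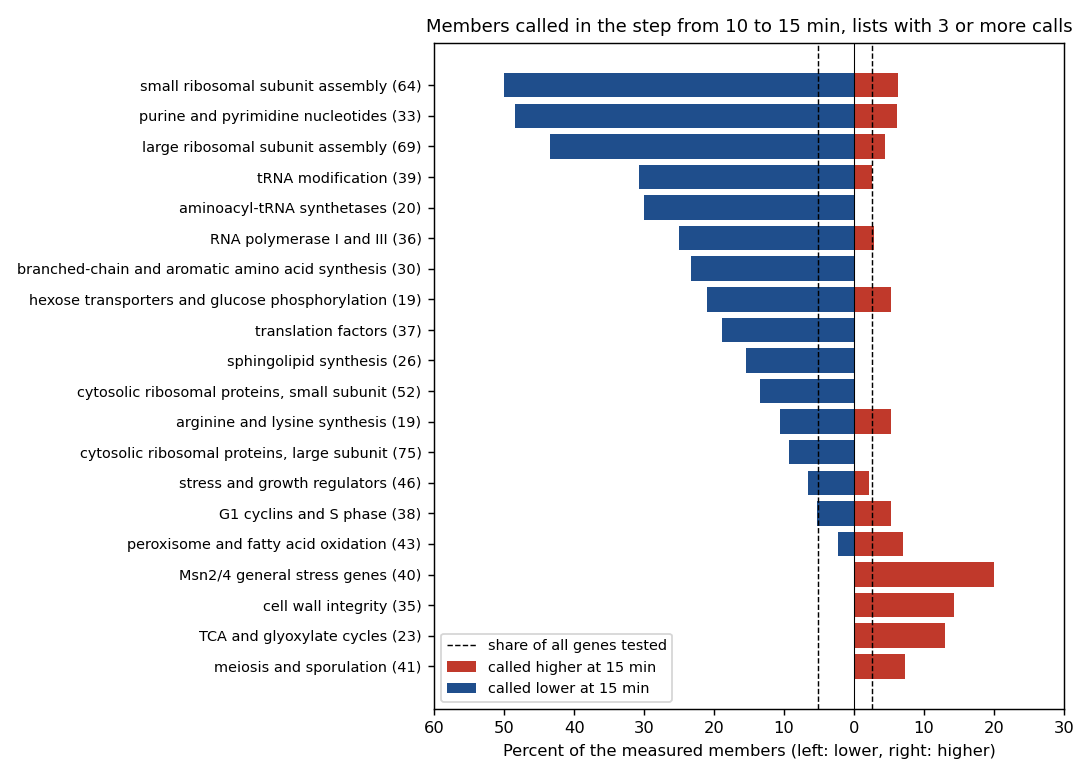
Percent of the measured members of each gene list called lower (left, blue) and higher (right, red) from 10 to 15 min, for lists with 3 or more calls; numbers in brackets are measured members and dashed lines the shares of all 5449 genes, 5.14% lower and 2.51% higher. Assembly of the small subunit (32 of 64), nucleotide metabolism (16 of 33) and assembly of the large subunit (30 of 69) have the longest blue bars, and Msn2/4 stress genes (8 of 40) the longest red one.

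Among trehalose and glycogen genes 2 of 20 rose, or 10%, against 2.51% of all genes. They were the glycogen debranching enzyme GDB1 (0.86 ± 0.05) and the phosphatase regulator PIG1 (0.69 ± 0.09). GPM2, a copy of phosphoglycerate mutase, and GCY1, a glycerol dehydrogenase, rose by 0.66 ± 0.11 and 0.80 ± 0.10 and were the only calls among 24 glycolysis genes and 15 genes of glycerol metabolism. PIG1 and GPM2 lost their calls under the scaling by poly-A spikes.

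The 59 genes that rose without an earlier call included the largest rise of all. LSO1 (YJR005C-A), a small protein whose copy LSO2 binds ribosomes, read 5.86, 6.05 and 5.70 at 10 min and 8.19, 8.78 and 8.34 at 15 min. At 7 min it had been at 5.17, below the floor, and it rose by 2.56 ± 0.13, or 5.91-fold (adjusted p = 9.7e-13). By 40 min its mean was back at 5.89. URA10, a minor isozyme of orotate phosphoribosyltransferase, went from 7.86, 8.02 and 7.90 to 9.35, 9.18 and 9.26 and rose by 1.34 ± 0.07, while the main isozyme URA5, looked up afterwards, had a step of -0.51 ± 0.04 and was not called. SHH3, a copy of a respiratory membrane protein, read 5.07, 4.89 and 4.93 at 10 min, all below the floor, and 6.16, 6.18 and 6.28 at 15 min, so it was at least 1.66-fold higher, set against the floor (adjusted p of the fit 3.7e-11). NDE2, a mitochondrial NADH dehydrogenase, and TSA2, an inducible peroxiredoxin, rose by 1.19 ± 0.10 and 1.1 ± 0.10, and each was the only call on its list, of 39 respiratory and 35 redox genes.

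The thiolase POT1, which ends each round of fatty acid oxidation, went from 6.15, 6.32 and 6.49 to 7.31, 7.35 and 7.34 and rose by 1.01 ± 0.08, and PEX18, an import co-receptor, rose by 1.04 ± 0.09. With POX1, already called higher at 7 min, these were 3 rises among 43 peroxisome genes, and there was 1 fall, the acyl-CoA synthetase FAA4 (-1.0 ± 0.07). The 9.3% called either way stood near the 7.65% of all genes. Of 23 genes of the tricarboxylic acid and glyoxylate cycles 3 rose, or 13%, against 2.51% of all genes. They were CIT3 (0.83 ± 0.08), the malate synthase MLS1 (0.82 ± 0.10) and the peroxisomal isocitrate dehydrogenase IDP3 (0.66 ± 0.10), and IDP3 went under 1.5-fold without 15 min replicate 3 (0.576). Of 41 meiosis genes 3 rose from low levels, the transcription factor NDT80 (0.97 ± 0.10), the recombinase DMC1 (0.94 ± 0.11) and ZIP2 (0.67 ± 0.12), which read 0.578 without 10 min replicate 1. The 7.32% called on this list, all rises, stood near the 7.65% of all genes called either way, while 2.51% of all genes rose.

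The smallest class, 17 genes, had been high at 7 min and turned down, and several of those named here encode transcription regulators. CIN5 (YOR028C), a stress factor of the basic leucine zipper family, read 12.36, 12.30 and 12.26 at 10 min and 10.90, 10.86 and 11.06 at 15 min. The groups were more than 1 log2 unit apart, and the fall by 1.36 ± 0.08 (adjusted p = 1.3e-11) began from 3.06 above 25 °C. RSB1, which moves sphingoid bases across the membrane, went from 10.33, 10.26 and 10.26 to 9.03, 8.90 and 8.97 and fell by 1.31 ± 0.07. PHD1, a regulator of filamentous growth, read 11.54, 11.38 and 11.51 and then 10.43, 10.15 and 10.30, a fall by 1.19 ± 0.06.

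MTH1, a repressor of glucose carrier genes, fell by 1.07 ± 0.06, ASI3, of a ubiquitin ligase in the inner nuclear membrane, by 0.95 ± 0.04, HAP4, the activator of respiratory genes, by 0.90 ± 0.08, and NRG2, a repressor, by 0.81 ± 0.08. Over a list of 46 stress and growth regulators 3 fell (CIN5, HAP4 and NRG2) and 1 rose (MIG2), against 5.14% and 2.51% of all genes. The 8.7% called either way on this list stood near the 7.65% of all genes. At 40 min 10 of the 17 were lower still than at 15 min and 0 higher, and the class median against 25 °C went from 1.49 at 7 min to 0.535 at 15 min and -0.475 at 40 min.

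Of 25 core targets of Hsf1 only SSA3, an inducible Hsp70 close in sequence to SSA4, was called, going from 12.38, 12.27 and 12.35 to 13.03, 13.12 and 13.12 with a rise by 0.75 ± 0.05. Without the minimum fold 15 of the 25 were higher and 0 lower, against 30.3% and 21.5% of all genes, and the list median was 0.109. HSP104 read 14.63, 14.64 and 14.59 and then 14.65, 14.75 and 14.64. SSA4 read 14.73, 14.76 and 14.78 and then 14.83, 14.89 and 14.89. HSP42 stood at 14.75, 14.73 and 14.73 and then 14.74, 14.73 and 14.72, and BTN2 at 14.41, 14.43 and 14.42 and then 14.34, 14.45 and 14.40. These values lie close to the highest on the 6 arrays, 15.04, and the part of this nearness in the small steps was not tested. HSP82 (0.08 ± 0.03), HSP26 (0.23 ± 0.06), UBI4 (0.26 ± 0.06), TPS1 (0.30 ± 0.04), CTT1 (0.21 ± 0.05), GPH1 (0.42 ± 0.06) and HSF1 (0.23 ± 0.04) were not called. Of these, CTT1 (12.996 to 13.37) and HSF1 (10.28 to 10.60) lay farther from the top of the scale. ACT1, actin, had a step of 0.09 ± 0.03. Under the scaling by poly-A spikes the uncalled steps of ACT1, HSP104, HSP82 and SSA4 took the opposite sign, at -0.059, -0.092, -0.065 and -0.037.

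With 7.65% of all genes called, 0 calls is near the background share only in short lists, such as the 9 histones. Several processes had 0 called members in the limma fit. They were the mitochondrial ribosome (65 genes, median step 0.190), the proteasome and ubiquitin genes (47, median 0.248), autophagy (33, median 0.120), folding in the endoplasmic reticulum (25, median 0.125), messenger RNA decay (36, median -0.011), the cytosolic chaperonin and prefoldin (14, median -0.033), mitotic genes (27, median 0.008) and histones (9, median -0.048). Without the minimum fold 43 of the 65 mitochondrial ribosome genes and 41 of the 47 proteasome genes were higher at 15 min, against 30.3% of all genes. These small rises depend on the scale of the arrays. The scaling by poly-A spikes shifts every step by -0.148, which stands beside the list medians of 0.190 and 0.248. Under the scaling by poly-A spikes 1 gene each of autophagy, messenger RNA decay and the chaperonin list fell.

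The step was then set against the equally long step from 5 to 10 min by the contrast of their difference in the same limma fit. That contrast was called higher in 413 genes (7.58%) and lower in 328 (6.02%). A higher value means a larger rise, a smaller fall or a turn upward in the later step. In the step from 5 to 10 min alone 550 genes (10.1%) rose and 610 (11.2%) fell. Both steps use the 10 min arrays, so an error in those moves them in opposite directions, and their values are given side by side. Of the 550 genes, 84 rose again, and of the 610, 204 fell again. The later rise was called larger than the earlier change in 19 genes and the later fall in 37. These counts leave out genes whose earlier change went the opposite way by 1.5-fold or more.

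KRE33 was among those whose fall was larger in the later step, by -1.72 (adjusted p = 4.9e-05), with NOP13 (-1.43, adjusted p = 2.3e-05), RPA190 (-1.33, adjusted p = 8.2e-04), URA1 (-0.98) and HRP1 (-1.2). For MAK21 (-0.59, adjusted p = 0.053), NOP14 (-0.39, adjusted p = 0.088) and URA7 (-0.12, adjusted p = 0.67) the difference between the steps was not called. Other genes fell by less in the later step, such as AAH1 (2.12, adjusted p = 4.7e-11), HXT1 (0.88), RNR1 (0.87) and RPA49 (0.73). AAH1 read 6.12, 5.75 and 5.86 at 15 min, near the floor of 5.476, which leaves little room for a larger fall. The part of this nearness in its smaller fall was not tested. Among the 156 genes that kept falling, the fall was called larger than before in 21 and smaller in 53.

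Rises that were called larger than before included LSO1 (1.63, adjusted p = 6.3e-06), PIR3 (1.41, adjusted p = 7.5e-08) and URA10 (0.98). For POX1 (0.19, adjusted p = 0.25), TKL2 (0.36, adjusted p = 0.12) and GND2 (0.13, adjusted p = 0.54) the difference was not called. HXT5 (-2.23), FMP45 (-1.54) and GPM2 (-1.51) rose by less than before. Of the Msn2/4 list 22 of 40 genes had a lower value in the later step than in the earlier one and 0 a higher one. Among genes that turned up the difference was called higher in 25 of 31, with NSR1 at 4.42 (adjusted p = 1.9e-13) and UTP9 at 3.12. That class was picked by a called rise in the later step, which by itself raises the difference.

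Later times showed where the step led. From 15 to 40 min 830 genes (15.2%) rose and 950 (17.4%) fell, a comparison that shares the 15 min arrays with the step, so an error in those alone would also make genes appear to return. Of the 156 genes that kept falling, 149 were higher at 40 than at 15 min and 1 lower, and their median against 25 °C went from -3.80 to -1.33. KRE33 was at 10.7 at 40 min against 12.4 at 25 °C, and RPA190 at 11.7 against 13.01. Of the 107 late fallers 77 were higher and 4 lower, with medians of -1.52 and -0.674. HRP1 was among those not called, with a change of 0.35.

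Of the 47 genes that kept rising, 34 were lower at 40 than at 15 min and 3 higher, and of the 59 that rose without an earlier call 24 were lower and 6 higher. RTN2 (-2.89), HXT5 (-2.85) and FMP45 (-2.79) dropped far, whereas GPG1 (0.61) and PIR3 (0.73) rose again. The genes that turned up continued upward, with 25 of 31 higher and 0 lower, and AQR1 reached 11.03, beside 11.01 at 25 °C.

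At 42 °C the interval from 10 to 40 min, on separate arrays and with other times, gave values that can stand beside the 37 °C step. In that interval 1388 genes (25.5%) rose and 1083 (19.9%) fell. Of the genes that kept falling at 37 °C, 147 of 156 fell and 0 rose at 42 °C, and of the late fallers 94 of 107 fell and 3 rose. SSB2 fell by 3.69 ± 0.08 and KRE33 by 4.84 ± 0.06 there. Of the genes that kept rising 44 of 47 rose and 0 fell, with GND2 at 3.47 ± 0.07 and TKL2 at 1.64 ± 0.12, although POX1, at 0.04 ± 0.07, was not called. LSO1 had a value of -0.34 ± 0.11. Of the 31 genes that turned up at 37 °C 9 rose and 7 fell at 42 °C, shares near those of all genes. Of the 17 that turned down 1 rose and 7 fell, and CIN5 fell by 1.96 ± 0.06. NSR1, at -0.28 ± 0.51, and AQR1, at -0.45 ± 0.17, were not called there.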

How the data were processed

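Total RNA (150 ng per sample) was amplified and labelled with biotin by a 3′ in vitro transcription kit and hybridised to expression arrays, per the labels' protocols. Each deposited value is the log2 intensity of a probe set, which the authors obtained, per the submitters' processing notes, by RMA in the affy package. Tool versions and the build were not given in the sources used here. This method sets the arrays to a common distribution, so an overall change in messenger RNA per cell cannot be seen.

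Of 5900 probe sets measured on 45 arrays, 5498 carried 1 gene symbol, and all of these matched a RefSeq gene of assembly R64, with 12 symbols renewed. Where a gene had more than 1 probe set (47 genes) the brightest was used, leaving 5449. The floor of 5.476 is the 95th percentile of 29 probe sets without a target in batch A863, and 188 genes had both means below it. Identical values occurred in 0 pairs of arrays.

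A mean per group was fitted to the 24 arrays of batch A863 by lmFit and eBayes of limma 3.58.1 under R 4.3.3, which left 16 residual degrees of freedom, with two-sided tests and Benjamini-Hochberg adjustment over all genes. The 10 arrays of batch A927 had a fit of their own with 5 residual degrees of freedom. Replicate numbers come from the titles. Deviations of same-numbered arrays at 10 and 15 min correlated at 0.255, 0.189 and 0.195, and all 3 arrays of 10 min were closest to their own number. Between all groups of batch A863 the median was 0.043 for the same number and -0.016 for other numbers. Any pairing by number was thus weak, and no label says what the numbers mark. The main fit did not use them.

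The comparison, the 41 gene lists and the rule for named genes were chosen with earlier results of these data known. The rule took the 12 largest rises and 12 largest falls, the 6 largest steps of each class, at most 4 called genes per list, members of any list with no more than 21 genes, and certain heat shock and marker genes. ADE6, ADE13, ADE17, ALB1, CIC1, REI1, SOF1, UTP9, UTP15, IMD3, GND1, TKL1, TAL1 and URA5, and the other genes outside it, were named after their values were seen. Alternatives covered the arrays fitted, an intensity trend, 3 rescalings, a filter at the floor, the replicate block, array weights, the mean of probe sets, the minimum fold, the earlier time and each array left out. Arrays of batches A705, A961 and P230 enter only an alternative fit.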

Additional observations from a re-analysis of the deposited data

Results flagged for a closer look

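The step from 10 to 15 min and the step from 5 to 10 min were called in opposite directions in 18 genes, 17 of which fell and then rose. Each was picked by calls in opposite directions, so a difference between these equally long steps was given in advance. The limma contrast of that difference gives its size and adds no support. Because the steps share the 10 min arrays, an error common to those arrays would push them apart. NSR1 had a change of -3.53 from 5 to 10 min and 0.89 from 10 to 15 min, a difference of 4.425. Among other ribosome assembly factors the difference was 3.123 for UTP9, 3.005 for ALB1, 2.613 for CIC1, 2.505 for UTP15, 2.329 for SOF1 and 1.607 for REI1. The RNA methyltransferase genes TRM2 and BMT6 had differences of 2.711 and 1.804. FAR1 had 2.627 and MSG5, which acts in the same pheromone pathway, had 1.449. The carriers FCY2 and PHO84 had 2.519 and 1.724, and the repressor MIG2 had 1.988. PRR2, a protein kinase gene, was the exception that rose and then fell, with a difference of -1.429, and its fall of -0.60 ± 0.06 in the later step went under 1.5-fold without 10 min replicate 3 (-0.561) or 15 min replicate 2 (-0.553).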

How the results depend on the processing

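The counts of the step changed by less than 1.5 times when each of the 6 arrays was left out, with the replicate block, with only the 6 arrays, with array weights, with an intensity trend, with a filter at the floor, and with the mean of probe sets. With the replicate number as a block 137 genes rose and 278 fell, and the block moved no other count by over 1.5 times. A fit without batch A961, added after seeing the data, gave 137 rises and 280 falls again.

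A fit on all 45 arrays gave 35 rises and 42 falls, and 52 higher and 22 lower differences from the earlier step. The replicate arrays of batch A961 correlated at only 0.612 and 0.62. In that fit 2 genes kept rising, 25 rose without an earlier call, 8 turned up, 24 fell without an earlier call and 6 kept falling. The poly-A spike scaling gave 73 rises in the step, 192 lower differences, and classes of 29 (kept rising), 31 (rose without an earlier call), 13 (turned up), 28 (turned down) and 188 (fell without an earlier call). Spikes carry their own error, and whether they or the RMA scale lie nearer the cells was not tested. Under it the steps of ACT1 (-0.059), HSP104 (-0.092), HSP82 (-0.065), SSA4 (-0.037) and TAL1 (-0.029) took the opposite sign. With 1 array left out the uncalled steps of BTN2 and HSP42 ranged from -0.049 to 0.005 and from -0.012 to 0.000.

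A 2-fold minimum left 29 rises and 131 falls in the step, 207 and 72 differences, 429 and 443 calls at 7 min, 497 and 379 from 15 to 40 min, and 580 and 706 at 42 °C. The classes then held 8 (kept rising), 18 (rose without an earlier call), 3 (turned up), 3 (turned down), 53 (fell without an earlier call) and 75 (kept falling). Without a minimum the step had 1651 rises and 1172 falls, the differences were 1002 and 1219, and the classes held 891, 335, 425, 188, 256 and 728 in the same order. With the earlier direction taken from 10 min, 79 genes kept rising, and 29 rose and 42 fell without an earlier call. Genes near the floor of 5.476 and abundant chaperones near the top of the scale may have steps limited by the range of signal, which was not tested.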
